A study of Mus musculus with 2 samples.

Results

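The heterochromatin genes examined here were Setdb1, Trim28, Ehmt1, Ehmt2, Suv39h2, Daxx and Hells, whose products silence retrotransposons together with DNA methylation. For each of these 7 genes, of 22363 protein-coding genes in the annotation, the ATAC-seq peaks within the gene and 20 kb on either side were taken and placed by their distance to the transcription start site (TSS). These loci held 61 of the 71914 peaks listed for wild type (WT) cells and 43 of the 61640 peaks listed for Uhrf1 KO cells. All 7 genes were chosen by function and not by their peaks, although earlier results of these data were known at that time. A locus here means the gene with its flanks, and a member is one of the 7 genes.

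ATAC-seq marks open chromatin, because the Tn5 transposase inserts sequencing adapters where nucleosomes leave DNA accessible. 1 library came from WT E14 mouse embryonic stem cells (ESCs) and 1 library from Uhrf1 KO E14 ESCs, a line without the DNA methylation cofactor Uhrf1 that was supplied by another laboratory, with no clone number given. Both were undifferentiated, were grown with serum and leukemia inhibitory factor on gelatin or on a layer of mouse embryonic fibroblasts (MEFs), and were lysed at 50000 cells per sample. With 1 library per genotype, the values compare those libraries and carry no replicate error, and no difference between the genotypes could be tested. The lists hold positions of peaks, 101 bp wide in all but 1 KO peak, but no read counts, so the depth behind a peak is unknown, and a peak shared by few cells cannot be told apart from a weakly open site in all cells. At the targeted gene, Uhrf1, the WT list held 2 peaks within 1 kb of the TSS and the KO list held 3, which says nothing of its deletion because the deleted part is not given in the sources used here. Of 6 ESC marker genes, 5 had a TSS peak in WT (Esrrb had none) and 5 in KO (Pou5f1 had none), with 13 TSS peaks summed over the list in WT and 9 in KO. Of 6 fibroblast marker genes, which the feeder layer could bring, 5 had a TSS peak in WT and 4 in KO, with 15 and 9 peaks in all. Col3a1 had none in either library, and Pdgfrb had none in KO. TSS peaks therefore did not separate these cell types, and the part of feeder cells in the results was not tested.

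H3K9 methylation is a histone mark of closed chromatin that HP1 proteins read. KRAB zinc finger proteins bind retrotransposons and recruit Trim28 (KAP1), which brings the H3K9 methyltransferase Setdb1. Ehmt1 (GLP) and Ehmt2 (G9a) act as a pair that writes mono- and dimethylation of H3K9, whereas Suv39h2 writes trimethylation, mainly at pericentric repeats. Daxx deposits the histone variant H3.3 with its partner Atrx, and Hells (LSH) is a remodelling ATPase that is needed for normal DNA methylation of repeats. In ESCs, Uhrf1 recognises both hemimethylated DNA and methylated H3K9 and recruits Dnmt1, so that these proteins and DNA methylation act on many of the same elements.

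To show the DNA in which the start-site peaks lie, the 150 bases before the first annotated coding start of each gene are given below in the direction of transcription, from the mm9 genome (NCBIM37). Capitals mark matches, on either strand, to 9 short motifs, namely the GC box GGGCGG, the CCAAT box CCAAT, the ETS core CCGGAAG, the cyclic AMP response element (CRE) TGACGTCA, the E-box CACGTG, the NRF1 core GCGCATGC, the YY1 core AAGATGGCG, the TATA box TATAAA and the Oct4 octamer ATGCAAAT. Only the GC box, the ETS core and the cyclic AMP response element were found in these 7 windows, and each of the 7 windows held a GC box. GC boxes were present in 35.9% of the same windows of all 22363 genes, ETS cores in 6.83% and cyclic AMP response elements in 1.72%. All 7 member TSSs have at least 60% GC around them, and the share of GC boxes among such TSSs alone was not computed. The 35.9% therefore does not show GC boxes to be particular to these genes. For the others, the share of all windows was 26.1% (CCAAT), 7.84% (TATA), 4.61% (E-box), 2.30% (NRF1), 1.03% (octamer) and 0.434% (YY1). The Ehmt2 window is short because an exon of C2 ends 16 bases before the first start.

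Setdb1 (chr3:95161125-95161274, minus strand): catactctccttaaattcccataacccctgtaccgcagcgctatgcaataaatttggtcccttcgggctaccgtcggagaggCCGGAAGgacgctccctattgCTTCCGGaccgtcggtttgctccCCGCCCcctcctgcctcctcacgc
Trim28 (chr7:13609351-13609500, plus strand): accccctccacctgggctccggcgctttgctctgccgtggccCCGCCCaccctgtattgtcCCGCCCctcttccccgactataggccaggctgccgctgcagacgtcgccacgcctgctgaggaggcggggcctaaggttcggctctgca
Ehmt1 (chr2:24775130-24775279, minus strand): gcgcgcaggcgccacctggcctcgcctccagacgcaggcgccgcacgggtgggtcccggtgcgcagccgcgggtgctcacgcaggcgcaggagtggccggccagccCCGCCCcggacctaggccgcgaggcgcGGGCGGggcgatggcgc
Ehmt2 (chr17:35035398-35035413, plus strand): gacccgGGGCGGccgc
Suv39h2 (chr2:3392304-3392453, minus strand): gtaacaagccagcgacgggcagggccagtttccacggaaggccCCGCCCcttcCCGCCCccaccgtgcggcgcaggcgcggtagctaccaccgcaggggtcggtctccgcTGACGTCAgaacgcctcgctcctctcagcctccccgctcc
Daxx (chr17:34046209-34046358, plus strand): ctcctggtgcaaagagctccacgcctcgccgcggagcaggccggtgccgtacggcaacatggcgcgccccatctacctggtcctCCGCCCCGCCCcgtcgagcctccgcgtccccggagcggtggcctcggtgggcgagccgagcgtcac
Hells (chr19:39005255-39005404, plus strand): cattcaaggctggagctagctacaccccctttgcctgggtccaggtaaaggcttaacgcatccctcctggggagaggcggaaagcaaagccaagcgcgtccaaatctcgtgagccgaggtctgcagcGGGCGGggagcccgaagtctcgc

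The Trim28 window was wholly covered by WT peaks (150 of 150 bases), while KO peaks covered 26 bases of it. For Ehmt1 the order was the opposite, with 110 bases under WT peaks and 150 under KO peaks. At Hells, WT and KO peaks each covered 101 bases, and at Daxx they covered 89 and 99. At Setdb1, where the peaks lay mostly downstream, 15 and 49 bases were covered. For Suv39h2 the values were 148 in WT and 47 in KO, and the CRE lay 33 to 40 bases before the first start. No base of the Ehmt2 window was covered in either library.

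Counted over all members, most peaks lay at start sites, and most of these were starts of neighbouring genes. In WT, 18 of the 61 peaks lay within 1 kb of a member's own TSS, 2 elsewhere in a member gene, 34 within 1 kb of the TSS of another protein-coding gene and 7 at none of these places. In KO the numbers were 12, 3, 25 and 3 of 43. Genome-wide, with 1 start per gene, 29378 of 71914 WT and 22412 of 61640 KO peaks lay within 1 kb of a protein-coding TSS. Each locus was taken around a gene and so holds a TSS by design. The ratio of KO to WT peaks was 0.705 (exact 95% interval 0.466 to 1.06), beside 0.857 (0.848 to 0.866) over the whole genome and 0.763 (0.750 to 0.776) over all peaks within 1 kb of a protein-coding TSS. Both genome-wide ratios lie inside the interval of the 7 loci, so a difference from them was not detectable with this number of peaks. These intervals, like all intervals given here, cover counting error only and treat neighbouring peaks as independent, which they are not. Trim28 alone held 21 of the WT and 12 of the KO peaks, and without it the ratio was 0.775 (0.469 to 1.27), from 40 and 31 peaks. More WT than KO peaks were found at 5 of the 7 loci, fewer at Ehmt1 and equal numbers at Hells, beside 56% of the 19463 protein-coding gene loci that held any peak.

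**Figure D1:**
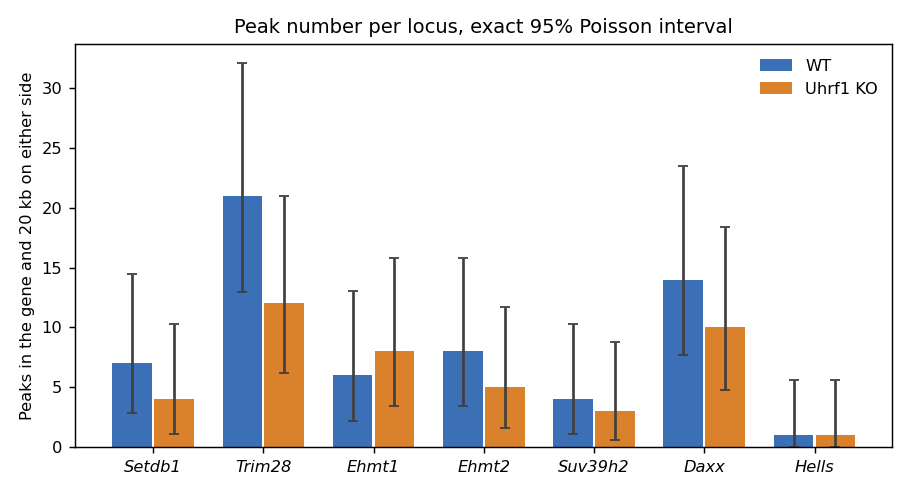
Number of ATAC-seq peaks (y axis) in each gene with 20 kb on either side (x axis) in the WT and the Uhrf1 KO library. Bars are single libraries and error bars are exact 95% Poisson intervals, which overlap between WT and KO at every gene, from 21 and 12 peaks at Trim28 to 1 and 1 at Hells.

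Peak numbers by gene ran from 1 to 21. At Trim28, the 21 WT peaks had an exact Poisson interval of 13.0 to 32.1 and the 12 KO peaks one of 6.20 to 21.0. The Daxx locus had 14 and 10, Ehmt2 8 and 5, Setdb1 7 and 4, Ehmt1 6 and 8, Suv39h2 4 and 3, and Hells 1 and 1. The WT and KO intervals overlapped at each gene. Genes with many peaks were those with many close neighbours: in Trim28 and Daxx 9 and 12 of the WT peaks sat at the TSSs of other genes, whereas every peak of Suv39h2 and Hells was at its own TSS in both libraries.

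**Figure D2:**
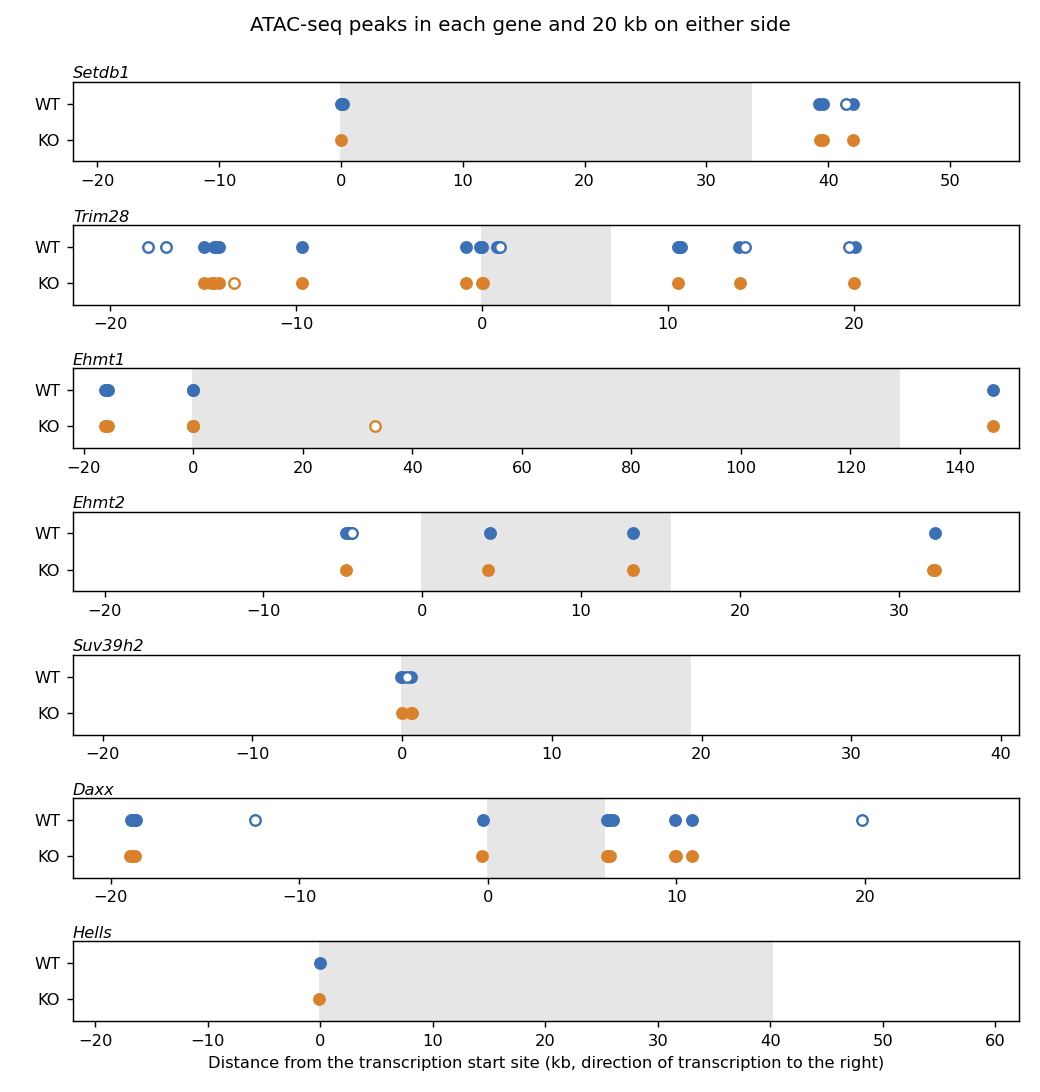
Position of each peak (points; x axis, distance from the TSS in kb, + downstream) in the 7 loci, with WT above KO and the gene body shaded. Open points are peaks with no partner within 100 bp in the other list, 14 of 61 in WT and 2 of 43 in KO; the filled points, 47 in WT and 41 in KO, have a partner that several peaks may share, and several points overlap at the TSSs.

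A peak had a partner in the other list when the gap between them was at most 100 bp. In the 7 loci, 14 of 61 WT peaks lacked a partner (23.0%, exact binomial interval 13.2 to 35.5), beside 32.1% of all WT peaks. Of the 43 KO peaks, 2 lacked one (4.65%, 0.568 to 15.8), beside 24.6% of all KO peaks. Peaks near TSSs were shared more often in general: 23.4% of WT and 6.55% of KO peaks within 1 kb of any protein-coding TSS had no partner, against 38% and 34.9% of the peaks elsewhere. Among the peaks at the TSS of a member or a neighbour, 10 of 52 in WT (19.2%, 9.63 to 32.5) and 1 of 37 in KO (2.70%, 0.0684 to 14.2) had none, both intervals holding the genome-wide value for TSSs. Away from TSSs, 4 of 9 WT peaks (44.4%, 13.7 to 78.8) and 1 of 6 KO peaks (16.7%, 0.421 to 64.1) had none. These intervals too held the genome-wide value. In the loci, any annotated coding start of a neighbour counted as a TSS, whereas the genome-wide values used 1 start per gene. The TSS rules compared here are therefore not the same.

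**Figure D3:**
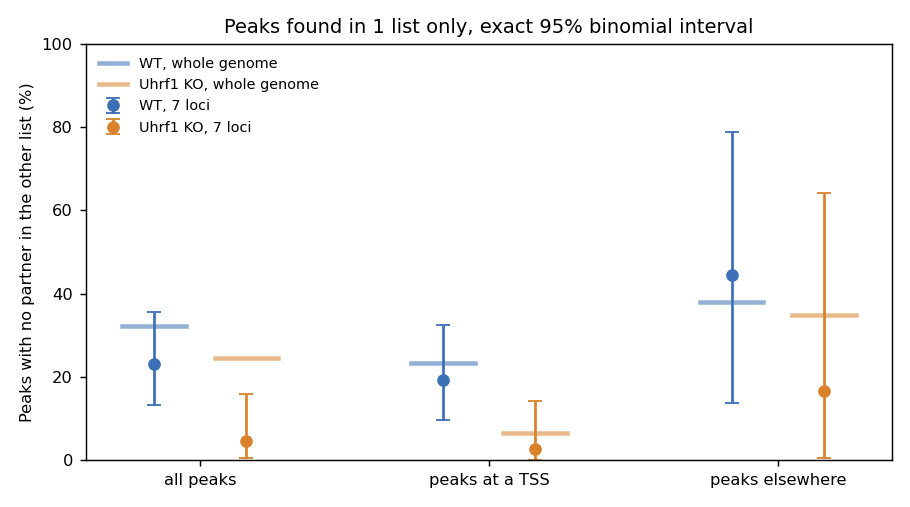
Percent of peaks with no partner within 100 bp in the other list (y axis) for all peaks, peaks within 1 kb of a TSS and peaks elsewhere. Any annotated coding start of a neighbour counted as a TSS in the loci, but only 1 start per gene in the whole genome. Points with exact 95% binomial intervals are the 7 loci and horizontal bars are the whole genome; of the 6 intervals, only that of all KO peaks (4.65%, 0.568 to 15.8) lies clear of its genome-wide bar (24.6%), and the KO peaks of the loci were mostly at TSSs (37 of 43).

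At their own TSS, 6 of the 7 members had a peak within 1 kb in WT and the same 6 in KO, beside 58.1% of 22363 protein-coding TSSs in WT and 52.7% in KO. The exception in both libraries was Ehmt2. All 7 member TSSs had at least 60% GC and an observed to expected CpG ratio of at least 0.6 over 501 bp. Of the 8563 protein-coding TSSs with these properties, only 3.49% had no peak in either library, so a peak is usual at such starts. In the annotation as a whole 40.4% of TSSs had no peak in either library, 6.86% had one in WT only and 1.47% in KO only, and no member was in the last 2 classes. Of the 6 members with peaks in both, 3 had more WT than KO peaks (Setdb1, Trim28, Suv39h2), 1 had more KO peaks (Ehmt1) and 2 had equal numbers (Daxx, Hells), beside 43.7% of 11465 genes with more WT peaks. Peaks of the same list can overlap, as the 3 WT peaks of Setdb1 do, so these are not counts of separate open regions. Taking the 18 WT and 12 KO peaks at the members' TSSs, the ratio was 0.667 (0.293 to 1.46).

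**Figure D4:**
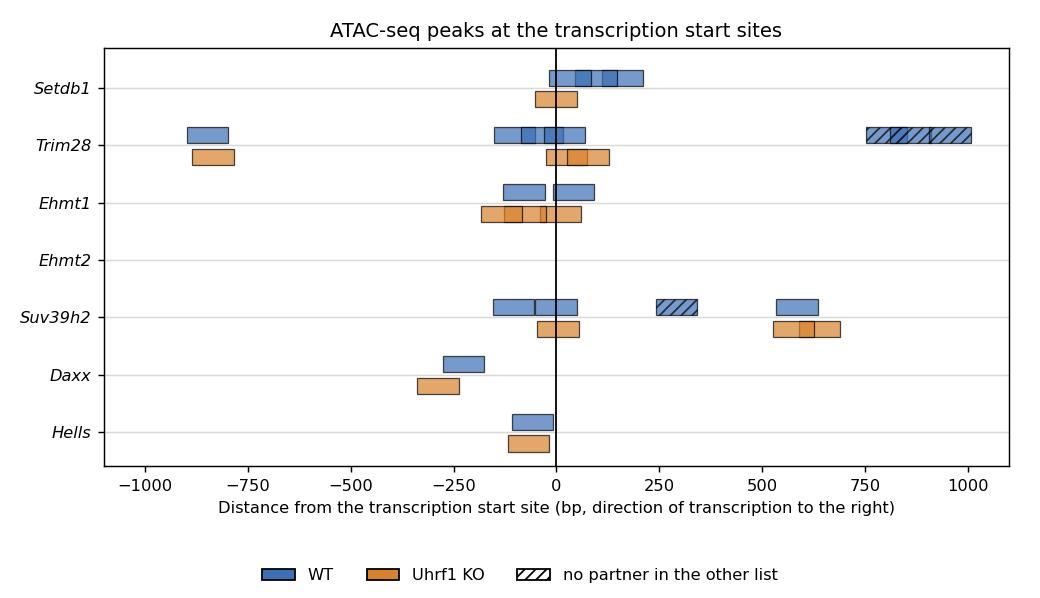
Peaks (boxes of 101 bp) within 1 kb of the TSS of each gene (y axis) by distance from the TSS in bp (x axis), with WT above and KO below the line. Hatched boxes are the 4 WT peaks with no KO partner, 3 in Trim28 and 1 in Suv39h2; no KO peak is hatched, and Ehmt2 has no box.

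Trim28, the corepressor that KRAB zinc finger proteins recruit, lies at chr7:13609501-13616384 on the plus strand and had the most TSS peaks of the members. The 7 WT peaks were centred at -849, -102, -36, +19, +802, +861 and +957 bp from the TSS, and the 3 KO peaks at -835, +24 and +76 bp. In WT, 299 of 22363 genes (1.34%) had as many as 7 TSS peaks. These counts take overlapping peaks singly. The WT peaks from -102 to +19 bp overlap in a row, and so do those from +802 to +957 bp. The KO peaks at +24 and +76 bp also overlap. With neighbouring peaks merged, the whole Trim28 locus held 13 peaks in WT and 10 in KO. The farthest upstream peak was present in both libraries, as was the one over the TSS, where the nearest WT and KO peaks were 5 bp apart. The 3 WT peaks from +802 to +957, over the end of a coding exon and the intron after it, had no partner, and the nearest KO peak was 625 to 780 bp away. Their DNA, 256 bases that hold 27 CpG and none of the 9 motifs, is printed here because it was the longest stretch at a member's TSS that only 1 library listed, and it was chosen after these values were seen.

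Trim28, WT only (chr7:13610253-13610508, plus strand): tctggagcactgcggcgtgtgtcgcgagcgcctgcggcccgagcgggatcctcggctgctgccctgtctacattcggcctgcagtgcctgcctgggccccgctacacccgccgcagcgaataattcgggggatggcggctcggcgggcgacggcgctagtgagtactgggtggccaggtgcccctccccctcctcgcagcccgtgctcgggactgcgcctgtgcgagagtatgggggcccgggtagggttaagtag

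Setdb1, the methyltransferase that Trim28 recruits, lies at chr3:95127447-95161124 on the minus strand. WT had 3 TSS peaks that overlap in a row, centred at +33, +96 and +160 bp, and KO had 1 at -1 bp. All 4 overlapped or lay within 100 bp of a peak of the other library. The central 31 bp of each of the 3 WT peaks occur at 2 places in the genome, and the second copy lies on the opposite strand of chromosome 3, 70426 to 70680 bp away. Within 1 kb of the second copy, the WT list held 1 or 2 peaks (the nearest 5 to 68 bp away) and the KO list none. The central 31 bp of the KO peak occur once. Within 500 bp of the TSS, 38.8% of the 1001 overlapping 31-base words occur more than once, whereas at the other 6 members all 1001 occur once. Because 1 alignment per read was kept, reads of the repeated part may come from either copy, and the number of WT peaks at Setdb1 is uncertain in that respect. No peak lay elsewhere in the gene body in either library.

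Ehmt1, which pairs with Ehmt2 as the H3K9 mono- and dimethylase, lies at chr2:24646289-24775129 on the minus strand. WT peaks were centred at +41 and -79 bp from its TSS, and KO peaks at +10, -77 and -134 bp, so that Ehmt1 was the only member with more KO than WT TSS peaks. All 5 had a partner. Ehmt1 also held the only peak inside a member gene, more than 1 kb from its TSS, that a single library listed. It was a KO peak at +33277 bp in an intron, 33135 bp from the nearest WT peak.

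Ehmt2 lies at chr17:35035414-35050997 on the plus strand and had no peak within 1 kb of its TSS in either library. The nearest peaks upstream were at -4415 bp in WT and -4774 bp in KO, both at the TSS of Zbtb12. In the gene body, WT peaks at +4278 and +13296 bp were matched by KO peaks at +4115 and +13246 bp. DNA around the Ehmt2 TSS was rich in CpG, with 81.8% GC over the 501 bp centred on it and an observed to expected CpG ratio of 0.735. Of the 8563 protein-coding TSSs with at least 60% GC and a CpG ratio of at least 0.6, 299 (3.49%) had no peak in either library, and of the 179 with at least 80% GC, 6 (3.35%) had none. All 1001 31-base words within 500 bp of the Ehmt2 TSS occur once in the genome. The numbers in the peak names of chromosome 17 skip 166 of 3281 values in WT and 117 of 2745 in KO. Whether a skipped number stood for a peak at Ehmt2 is not known.

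Suv39h2, at chr2:3373087-3392303 on the minus strand, had 4 WT peaks, at -105, -2, +291 and +584 bp, and 3 KO peaks, at +3, +576 and +639 bp. The WT peak at +291 bp, in a coding exon, had no KO partner, the nearest being 184 bp away. The peaks over the TSS of both libraries were 5 bp apart and held the only cyclic AMP response element among the members' TSS peaks, beside 1.13% of all WT and 1.23% of all KO TSS peaks. Both lists had peaks between +576 and +639 bp that lie 27 to 36 bp from another annotated coding start of Suv39h2. These peaks also overlap Gm13184, so whether they belong to Suv39h2 alone is not certain.

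Daxx, the H3.3 chaperone, lies at chr17:34046359-34052534 on the plus strand and had 1 TSS peak in each library, at -226 bp in WT and -289 bp in KO. The distances are from the start of the transcript with the longest coding sequence, and the first annotated start lies 187 bp before it. The KO peak also overlaps an exon of BC051226. Hells, the remodeller, lies at chr19:39005405-39045541 on the plus strand and had a single peak in its whole locus in each library, at -59 bp in WT and -68 bp in KO.

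The lists number their peaks within each chromosome, and a low number went with a peak that both lists held: 99.7% of WT and 99.3% of KO peaks among the 10% with the lowest numbers had a partner, against 34.3% and 46.5% among the 10% with the highest. Whether the number ranks the peaks by signal is not stated, so it is used here only as a position in the list. Each peak's position in the order of these numbers was given as a percent of the peaks listed on its chromosome. For the peak nearest to each member's TSS, the position was lowest at Trim28 in WT (1.20%, and 6.59% in KO). It was also low at Hells (3.73% and 4.29%) and Suv39h2 (7.49% and 4.98%). Daxx had 15.8% and 14.7%. At Setdb1 the positions were 31.9% and 42.0%, and at Ehmt1 13.8% and 52.5%, the widest gap between the libraries. The other TSS peaks of Ehmt1 stood at 16.6% in WT and at 47.8% and 23.0% in KO. The size of that gap thus depends on which peak lies nearest to the TSS. The medians over the 11465 genes with TSS peaks in both libraries were 21.6% and 29.3%. The 3 WT-only Trim28 peaks stood at 26.4% to 29.5%, and 92.5% of WT peaks with positions from 20% to 30% had a partner.

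The members' TSS peaks resembled other TSS peaks in base composition. Their median GC content was 69.3% in WT and 68.3% in KO, beside 68.3% and 66.3% for all peaks within 1 kb of a TSS and 56.4% and 53.5% for peaks elsewhere. GC boxes were found in 8 of 18 WT and 7 of 12 KO peaks, beside 41.9% and 43.2% of all TSS peaks. CCAAT was found only in the upstream Trim28 peak of each library, beside 15.4% of all WT and 19.1% of all KO TSS peaks. The ETS core was found in the Daxx peak in WT and the Setdb1 peak in KO, beside 6.14% and 6.68%. Neither the E-box, the NRF1 and YY1 cores, the TATA box nor the octamer that Oct4 binds was found in a member's TSS peak, and each is held by 0.323% to 3.31% of all TSS peaks.

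Away from any TSS, 5 peaks in the 7 loci were listed for 1 library alone. They are printed in the direction of the member's transcription, with the same motifs in capitals, because they are the peaks of the loci outside promoters that have no partner within 100 bp. The 3 at Trim28 lie in coding exons of its neighbours Zbtb45 and Mzf1, the 1 at Daxx between genes and the 1 at Ehmt1 in the intron named above. The nearest KO peak was 2931, 1936 and 129 bp away from the Trim28 peaks at -17968, -16973 and +19752 bp, so the last of them has a partner under the wider limit of 500 bp. The Daxx peak lay 6278 bp from the nearest KO peak and holds a TATA box on the opposite strand, which 2.22% of all WT peaks away from TSSs also hold. Read on the opposite strand, the Daxx sequence resembles the end of the Ehmt1 sequence, with mismatches. The search for exact copies of the central 31 bp would not find such diverged copies. Whether either peak lies in a repeat was not tested.

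Ehmt1, KO only, +33277 bp (chr2:24741802-24741902, minus strand): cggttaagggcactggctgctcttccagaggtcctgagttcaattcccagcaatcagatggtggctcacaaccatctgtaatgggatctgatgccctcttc
Trim28, WT only, -17968 bp (chr7:13591483-13591583, plus strand): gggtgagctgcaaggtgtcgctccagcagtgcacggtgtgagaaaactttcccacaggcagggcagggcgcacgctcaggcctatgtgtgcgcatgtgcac
Trim28, WT only, -16973 bp (chr7:13592478-13592578, plus strand): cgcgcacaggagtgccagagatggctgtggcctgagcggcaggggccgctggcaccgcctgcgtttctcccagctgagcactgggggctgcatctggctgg
Trim28, WT only, +19752 bp (chr7:13629203-13629303, plus strand): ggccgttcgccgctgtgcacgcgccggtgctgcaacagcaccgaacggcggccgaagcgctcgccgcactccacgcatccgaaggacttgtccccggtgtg
Daxx, WT only, -12321 bp (chr17:34034175-34034275, plus strand): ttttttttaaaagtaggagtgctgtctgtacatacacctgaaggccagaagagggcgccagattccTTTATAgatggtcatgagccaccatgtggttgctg

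Neighbouring genes supplied 34 WT and 25 KO peaks of the 7 loci. Around Trim28 they were Zbtb45, Chmp2a and Ube2m, around Daxx Kifc1, Zbtb22, Tapbp and Rgl2, around Ehmt2 Zbtb12 and Neu1, around Setdb1 Lass2 and Gm10691, and next to Ehmt1 Arrdc1. At Zbtb12, 5 WT peaks faced 1 KO peak, and 3 of the 5 lacked a partner, at 106 to 258 bp. At Rgl2, the WT list had a peak 131 bp from the TSS (+19850 bp from Daxx), and the nearest KO peak was 8918 bp away. It is printed because no WT peak of the loci lay farther from a KO peak, and it was chosen after these values were seen.

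Rgl2 start, WT only (chr17:34066346-34066446, plus strand): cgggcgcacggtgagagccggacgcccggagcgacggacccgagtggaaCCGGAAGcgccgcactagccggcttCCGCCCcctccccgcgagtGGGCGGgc

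The remaining peaks away from TSSs were found in both libraries at nearly the same place. Upstream of Trim28, an intergenic peak was centred at -9653 bp in WT and -9684 bp in KO. Beyond the end of Ehmt1, WT and KO peaks stood at +146004 and +146006 bp from its TSS.

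In 30 further genes of the pathway, listed for their roles, start sites were open in nearly every case. A TSS peak was found in 29 genes in WT and 28 in KO, beside the 58.1% and 52.7% given above for all TSSs. Many of these 30 starts are also rich in GC and CpG, and of the 8563 such TSSs described above only 3.49% had no peak in either library. The counts therefore do not show that the pathway is unusual. All 3 HP1 genes (Cbx1, Cbx3, Cbx5), which encode the readers of H3K9 methylation, had peaks in both, as did the 5 writers and partners, the 5 genes of the HUSH silencing complex and the MORC family, the 3 KRAB zinc finger genes and the 5 demethylases. Kdm1a, a histone demethylase, had 1 peak in WT and none in KO. H3f3b, an H3.3 gene, had none in either, although peaks lay within 1 kb of another of its annotated coding starts in both libraries. The 30 genes had 87 WT and 64 KO TSS peaks together, beside 32247 and 24648 over all 22363 TSSs. More WT peaks were found at 15, more KO peaks at 6 and equal numbers at 9, beside 6541, 2534 and 13288 of all TSSs, where the equal ones include those with no peak. The most TSS peaks were 6, at Cbx3 and Rif1 in WT and at Cbx5 in KO. Summed by class, the WT and KO numbers were 9 and 5 at the KRAB zinc finger genes, 15 and 9 at the demethylases, 17 and 10 at the other partners, 15 and 13 at the HUSH and MORC genes, 12 and 12 at the HP1 genes and 5 and 6 at the H3.3 genes. The writers and their partners had 14 and 9, but more WT peaks were found at 2 of these 5 genes (Wiz, 5 and 1, and Zfp644, 4 and 1), more KO peaks at 2 and equal numbers at 1.

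**Figure D5:**
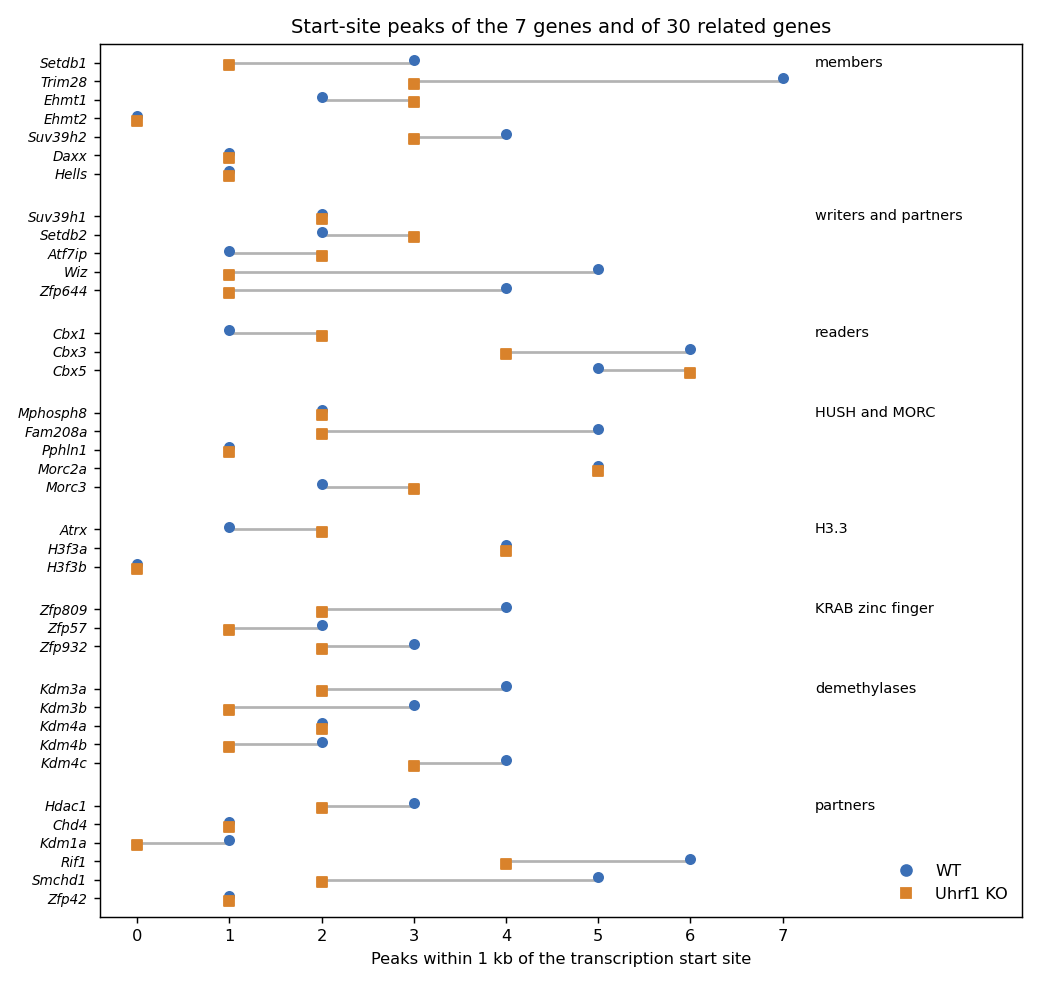
Number of peaks within 1 kb of the TSS (x axis) in WT (circles) and Uhrf1 KO (squares) for the 7 members and 30 related genes (y axis), 1 library each. Trim28, with 7 WT peaks, several of them overlapping, is above all 30 related genes in WT, and Ehmt2 and H3f3b stand at 0 in both libraries.

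Other genes with the most similar layout of open chromatin were sought over 80 bins of 1 kb, 40 for each library, around the TSS, by the share of occupied bins in common (Jaccard index). Ehmt1, with 8 occupied bins, had the same bins as Zfp110 and Zfp787 (index 1). Trim28, with 18, was most like Zfp119b (0.458), Daxx, with 12, most like Hspb6 (0.769), and Ehmt2, with 6, most like Pbld1 (0.667). For Setdb1, Suv39h2 and Hells, which had 2 or 3 occupied bins, 64 to 847 genes tied, and none is named.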

How the data were processed

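ATAC-seq peak lists of 1 WT and 1 Uhrf1 KO library of E14 ESCs were analysed. The authors aligned reads in local mode (Bowtie2 2.1.0, build mm9), with 1 alignment per read, kept short fragments and used Bedtools 2.25.0. The submitters' processing notes also name HOMER 4.9.1. The peak caller's role, its threshold and any shift of reads for Tn5 are not given in the sources used here. The deposited score was 1 for every peak and was not used, so only peak positions entered.

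Genes and TSSs came from GENCODE vM1, on the same build (NCBIM37). The TSS was the start of the transcript with the longest coding sequence, and peaks were placed by their middle. The RefSeq tables at hand were on another build and were not used. Lists, partners (gap of at most 100 bp) and intervals were computed in scipy 1.17.1, pandas 2.3.3 and numpy 2.4.6 under Python 3.11.15, sequence with pysam 0.24.0 and samtools 1.23.1, exact copies of 31-base words on both strands with numba 0.67.0, and figures with matplotlib 3.10.9. The partner routine was tested on 20000 simulated regions and made 0 wrong calls. Intervals are exact, binomial (Clopper-Pearson) or Poisson, at 95%. The interval of a ratio follows from the binomial share of KO peaks.

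All 7 members are described. Of the related genes, those without a TSS peak in 1 or both lists and those with the most are named. Neighbours are named where their TSS holds a peak, and the most similar gene where at most 3 tie and at least 3 bins are occupied, over 100 kb away. The members and lists were chosen with earlier results of these data known. Sequence of untranslated regions is not printed, so windows before the start replaced the peaks nearest to the TSSs. Alternatives changed the flanks, the partner rule, the TSS definition, merging, list length and copy number.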

Additional observations from a re-analysis of the deposited data

How the results depend on the processing

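Of 117 alternatives over all results, 85 left the value within 1.5 times of it, or within its interval for shares and ratios, and 32 moved it. A reversal was scored only for the ratio of KO to WT peaks in the 7 loci, and none was found. The order of WT and KO at single genes was not scored. In some settings those numbers became equal, as at Ehmt1 (6 and 6, lower 50% of name numbers). They also became equal at Daxx (7 and 7, flanks of 10 kb), Ehmt2 (4 and 4, neighbouring peaks merged) and Suv39h2 (9 and 9, flanks of 50 kb). The count of members with a TSS peak was 6 in each library under all 5 alternatives run, and that of the related genes was 26 to 30 (WT) and 24 to 29 (KO). The ratio of KO to WT peaks ran from 0.604 (0.367 to 0.978, lower 50% of name numbers, the only interval below 1) to 0.838. That interval holds the ratio of the whole lists, 0.857, so a difference from the whole genome was not detectable there. The number of WT peaks in the 7 loci was 37 with neighbouring peaks merged, 19 with only peaks whose nearest start was a member's, and 40 without Trim28. The number of KO peaks was 28 with flanks of 10 kb, 72 with 50 kb and 14 with only the peaks nearest to a member. The share of WT peaks with no partner was 50.8% when 50% of both peaks had to be shared, 13.1% with partners within 500 bp and 12.5% for the lower 50% of name numbers, and for KO it was 32.6% under the first rule. The peak number of single genes moved in 22 of 56 cases. Leaving out Trim28 was chosen after seeing the data. No paired analysis was possible because only 1 library was made of WT and 1 of KO cells. Depth per peak is unknown, and 1 library per genotype leaves the spread between cultures unmeasured.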
